A study of Saccharomyces cerevisiae with 18 samples.

Results

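The mRNAs examined here encode the proteins that turn small nucleolar RNAs (snoRNAs) of budding yeast into working particles (snoRNPs). Members were listed by gene name: 10 genes, all of which were found in each of the 3 deposited comparison tables, among 9393 features for U3, 9418 for the snr4 deletion in glucose and 9437 for the snr4 deletion on ice. The list holds the 4 box C/D core genes NOP1, NOP56, NOP58 and SNU13, the gene of the U3-specific protein RRP9, the 4 box H/ACA core genes CBF5, GAR1, NHP2 and NOP10, and NAF1, whose product is needed to assemble box H/ACA particles.

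RNA-seq was carried out on 18 libraries in 6 groups of 3, all from BY4741, a standard laboratory strain, and per the labels from SD glucose medium at 30°C. Both U3 groups lacked SNR17B, one of the genes for U3, and had the other, SNR17A, under a repressible PGAL promoter. The study's methods describe growth of the PGAL strain in galactose overnight, followed by a shift to glucose for a prolonged period to deplete U3 made from the chromosome, a step the snr4Δ experiment did not have. The U3 mutant libraries came from cells that in addition carried a truncated U3 on the centromeric plasmid pRS413, and the U3 wild type libraries from cells with intact U3 on that plasmid. The truncated U3 lacks some of its helices, has another replaced by a sequence of the snoRNA snR77, and keeps conserved boxes, and the study describes it as unable to support ribosome synthesis, which limits these cells as a model of U3 function alone. The other 4 groups were BY4741 and an snr4 deletion strain (snr4Δ), harvested during growth or after a short incubation in ice-cold PBS. The sample titles and the study's methods name ice, while the study's figure legend for that comparison names a transfer to ethanol and glycerol medium. The study's methods describe separate transformants as replicates of the mutant strains, and how the control replicates were raised was not given. No library was used in more than 1 comparison.

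snoRNAs fall into 2 families. Box C/D snoRNAs guide 2′-O-methylation of rRNA, and box H/ACA snoRNAs guide pseudouridylation. A box C/D particle forms when Snu13 binds the folded boxes and recruits Nop56, Nop58 and the methyltransferase Nop1. A box H/ACA particle holds the pseudouridine synthase Cbf5 with Gar1, Nhp2 and Nop10. U3 is a box C/D snoRNA that does not guide a modification but base-pairs with the pre-rRNA, and it carries Rrp9 as an additional protein. snR4, the snoRNA deleted in the second experiment, is also a box C/D snoRNA.

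All 10 genes lie on the nuclear chromosomes of the R64 reference as single coding exons, and none overlaps another gene of the RefSeq annotation. The box C/D core genes are NOP1 (chrIV:427364-428347, plus strand), NOP56 (chrXII:546097-547611, plus strand), NOP58 (chrXV:896825-898360, minus strand) and SNU13 (chrV:101943-102323, plus strand). The U3-specific gene is RRP9 (chrXVI:802359-804080, plus strand). The box H/ACA genes are CBF5 (chrXII:506134-507585, plus strand), GAR1 (chrVIII:282681-283298, minus strand), NHP2 (chrIV:87512-87982, plus strand), NOP10 (chrVIII:241664-241840, plus strand) and NAF1 (chrXIV:392892-394370, plus strand). NOP1, NHP2 and NAF1 start divergently from a neighbour, TSC13, CWC2 and ESBP6 in turn, at distances of 429, 285 and 724 bases. The promoter windows, from 250 bases before to 50 bases after the first base of the start codon, were read from that genome because ribosome biogenesis genes of yeast are known for 2 promoter elements, PAC and RRPE. The core letters of PAC (GATGAG) and RRPE (AAAAATTTT) were searched on both strands, and the second motif can overlap its own reverse complement by all but 1 base. PAC cores were present in 10 of 10 members, against 20.4% of 6001 promoter windows of protein-coding genes. RRPE cores were present in 7 of 10 members, against 6.98% of those windows. Both occurred in the same 7 genes, against 3.58% of windows. The members without an RRPE core were RRP9, NOP10 and NAF1. These matches describe the windows and are not evidence that a factor binds there.

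The SNU13, GAR1 and NHP2 windows are shown as examples that hold both motifs, and the RRP9, NOP10 and NAF1 windows as those with the PAC core alone. Motif matches are in capitals and all other bases in lower case. Each line reads 5′ to 3′ on the coding strand, where the reverse complement of a core appears as CTCATC or AAAATTTTT. Positions on R64 are chrV:101693-101992 on the plus strand for SNU13, chrVIII:283249-283548 on the minus strand for GAR1, chrIV:87262-87561 on the plus strand for NHP2, chrXVI:802109-802408 on the plus strand for RRP9, chrVIII:241414-241713 on the plus strand for NOP10 and chrXIV:392642-392941 on the plus strand for NAF1.
SNU13: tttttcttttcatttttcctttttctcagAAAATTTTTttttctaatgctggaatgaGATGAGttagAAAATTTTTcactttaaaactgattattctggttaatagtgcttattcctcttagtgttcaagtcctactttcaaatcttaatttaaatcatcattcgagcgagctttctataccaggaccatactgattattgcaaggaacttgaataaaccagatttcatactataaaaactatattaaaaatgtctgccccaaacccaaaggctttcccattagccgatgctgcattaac
GAR1: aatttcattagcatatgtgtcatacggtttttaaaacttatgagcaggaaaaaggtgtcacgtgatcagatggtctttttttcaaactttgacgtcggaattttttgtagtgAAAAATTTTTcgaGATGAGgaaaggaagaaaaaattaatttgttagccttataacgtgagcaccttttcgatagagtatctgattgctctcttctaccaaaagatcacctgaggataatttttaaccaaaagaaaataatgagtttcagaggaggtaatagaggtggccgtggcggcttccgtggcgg
NHP2: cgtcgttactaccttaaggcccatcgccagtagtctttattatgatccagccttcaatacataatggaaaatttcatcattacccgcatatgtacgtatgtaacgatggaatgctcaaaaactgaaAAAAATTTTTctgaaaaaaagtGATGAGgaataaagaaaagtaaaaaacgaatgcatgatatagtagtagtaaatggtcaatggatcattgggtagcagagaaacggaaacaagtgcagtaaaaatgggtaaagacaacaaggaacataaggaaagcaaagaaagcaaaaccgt
RRP9: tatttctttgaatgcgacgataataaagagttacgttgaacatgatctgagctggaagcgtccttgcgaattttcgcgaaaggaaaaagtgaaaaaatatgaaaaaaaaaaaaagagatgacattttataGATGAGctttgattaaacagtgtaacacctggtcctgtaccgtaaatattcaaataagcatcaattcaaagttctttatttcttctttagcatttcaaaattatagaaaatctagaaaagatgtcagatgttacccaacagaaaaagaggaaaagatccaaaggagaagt
NOP10: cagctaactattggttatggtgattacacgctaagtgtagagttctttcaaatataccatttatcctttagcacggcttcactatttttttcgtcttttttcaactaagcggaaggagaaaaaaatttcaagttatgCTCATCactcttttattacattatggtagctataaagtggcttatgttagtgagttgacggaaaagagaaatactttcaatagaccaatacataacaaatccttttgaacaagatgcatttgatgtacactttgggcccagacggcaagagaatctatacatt
NAF1: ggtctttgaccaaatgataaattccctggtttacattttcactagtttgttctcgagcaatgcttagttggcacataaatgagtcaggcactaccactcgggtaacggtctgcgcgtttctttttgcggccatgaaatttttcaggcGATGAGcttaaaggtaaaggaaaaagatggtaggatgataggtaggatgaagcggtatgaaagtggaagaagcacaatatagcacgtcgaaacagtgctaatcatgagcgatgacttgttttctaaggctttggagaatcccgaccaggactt

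The PAC cores of the members began between 102 bases (NHP2) and 204 bases (NOP1) before the start codon. In NOP58, GAR1, NHP2, NOP1 and CBF5 an RRPE core lay further from the start codon than the PAC core. In NOP56 the order was inverted, with PAC at 127 bases and RRPE at 111 bases before the start codon. SNU13 had RRPE cores on either side, at 221 and 183 bases, with PAC at 193 bases.

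**Figure D1:**
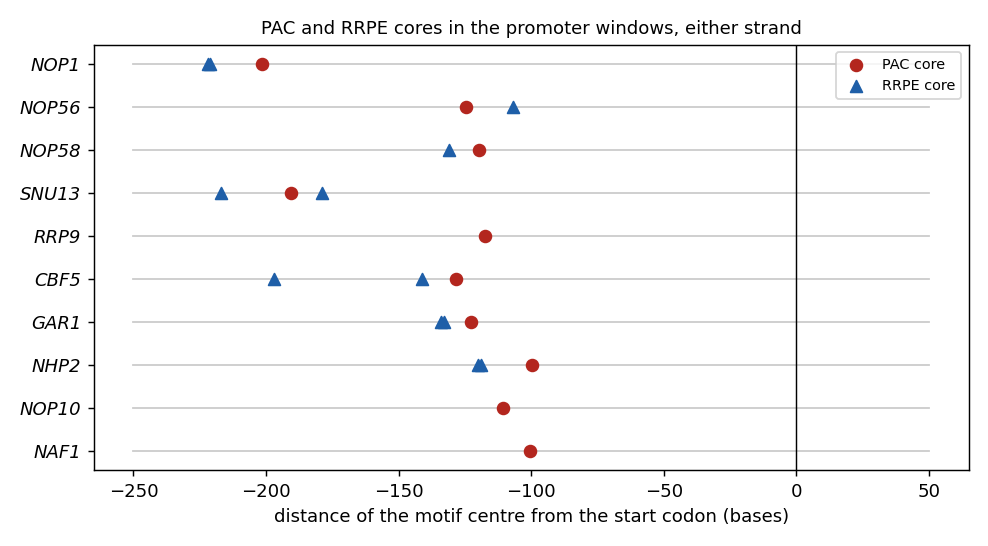
Positions of PAC cores (circles) and RRPE cores (triangles) in the promoter windows of the 10 genes, as distance of the motif centre from the start codon in bases; grey lines mark the searched window. Each PAC core begins 102 to 204 bases before the start codon, and RRP9, NOP10 and NAF1 have no RRPE core in the window.

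The members differed widely in mRNA level. Levels are given per kilobase of coding length, as estimated counts for U3 and as mean normalised counts for snr4Δ, averaged over the 6 libraries of a comparison. NOP10, which encodes the smallest of these proteins in a frame of 177 bases, had the highest level per kilobase in each table, at 60569 in the U3 experiment, 18603 in glucose and 22252 on ice. Before division by length its means were 10721, 3293 and 3939 in turn, beside 10463, 11091 and 14127 for NOP56. Its rank in glucose and on ice thus rests on division by a short length. NAF1 and RRP9 had the lowest levels, with 387 and 677 per kilobase in the U3 experiment. There they stood at percentiles 46.3 and 61.2 of protein-coding genes, while the other 8 members stood at percentile 86.4 or above. The mRNAs of the core proteins were more abundant than those of the assembly factor and of the protein specific to U3. In the U3 table the order below NOP10 was NOP56, CBF5, SNU13, NHP2, GAR1 and NOP1, from 6906 down to 5190 per kilobase. Neighbours among these differed by at most 1.10-fold, which is less than the replicate SD of either gene. NOP58 followed at 2626 per kilobase, 1.98-fold below NOP1, a step larger than the replicate SD of both. The spread between libraries is not given in the snr4Δ tables, so neighbours in their order were not compared.

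The U3 comparison asked how mRNA levels differ when cells rely on the truncated U3. Values are geometric means of estimated counts over 3 libraries, and replicate SDs are pooled over both groups on the log2 scale with 4 degrees of freedom. The table does not name its reference group. A positive value is read as a higher level with the truncated U3, from the table's title and the sign convention of the study's volcano plot. The row for SNR17A could not settle the sign, since its change did not pass the test (log2 fold change 1.24, standard error 0.86, sleuth q = 0.277). The mutant and wild type copies share part of their sequence, and the part of this in the row was not tested. In these bulk cultures, less mRNA per cell and fewer cells with the mRNA cannot be told apart.

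Of the 10 members, 5 were lower in the U3 mutant and 0 were higher at a sleuth q under 0.05 (0 higher also at an unadjusted p under 0.05). Over all 9380 features tested, 34.7% were past that threshold, 17.5% lower and 17.2% higher. Among 6078 protein-coding features 43.4% were past it and 22.9% were lower. The members' median log2 fold change was -0.70, beside -0.07 over all features tested. It was 0.02 over the features at or above the median level, the range in which all members lie. All members but NOP10 had a negative fold change.

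Among the box C/D core genes, SNU13 had the only difference past the threshold. SNU13, whose product opens assembly on the folded boxes, had 3023 estimated counts in the U3 wild type and 1897 in the U3 mutant, with a replicate SD of 0.29. Its log2 fold change was -0.67 (standard error 0.24, sleuth q = 0.0173). NOP1, the methyltransferase gene, went from 6561 to 3975 estimated counts, with a replicate SD of 0.38. This was a log2 fold change of -0.72 (standard error 0.31, sleuth q = 0.0552), larger than that of SNU13 but with more spread between libraries. NOP58 had 4989 estimated counts in the wild type and 3260 in the mutant (log2 fold change -0.61, sleuth q = 0.138). NOP56 had 11828 and 9256 (log2 fold change -0.35, sleuth q = 0.275). The 4 genes thus had the same sign, and their 95% intervals overlapped, from -1.33 to -0.12 for NOP1 at one end and from -0.83 to 0.13 for NOP56 at the other.

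RRP9, whose protein is specific to U3, had 1716 estimated counts in the U3 wild type and 793 in the U3 mutant. Its replicate SD of 0.15 was the smallest among the members. The level was 2.16-fold lower in the mutant (95% interval of the log2 fold change -1.48 to -0.74, sleuth q = 6.77e-08). RRP9 had the lowest q of the 10 genes.

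Of the 4 box H/ACA core genes, 2 were lower in the U3 mutant and 2 did not pass the test, and differences among the genes were not tested. GAR1 had 5002 estimated counts in the U3 wild type and 2471 in the mutant (log2 fold change -1.02, standard error 0.24, sleuth q = 2.16e-04). NHP2 had 3974 and 1976 (log2 fold change -1.01, standard error 0.22, sleuth q = 4.12e-05). The mRNAs were 2.02-fold and 2.01-fold lower, with replicate SDs of 0.30 and 0.27. CBF5, the pseudouridine synthase gene, had 10154 and 8493 estimated counts, a log2 fold change of -0.26 with a 95% interval of -0.73 to 0.22 (sleuth q = 0.445). NOP10 had 9485 and 12117, a log2 fold change of 0.35 with an interval of -0.36 to 1.07 (sleuth q = 0.495). The intervals of CBF5 and NOP10 hold 0 and also hold changes of more than 1.5-fold, so these genes are not shown to be unchanged.

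NAF1, whose product escorts Cbf5 until Gar1 replaces it in the mature particle, had the largest change of the 10 genes. It had 1125 estimated counts in the U3 wild type and 291 in the U3 mutant, 3.86-fold lower. The log2 fold change was -1.95 (95% interval -2.72 to -1.18, sleuth q = 6.59e-06). NAF1 also had the widest spread between replicates, 0.48 on the log2 scale. NAF1 and RRP9, the members with the lowest levels, had the 2 largest decreases.

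**Figure D2:**
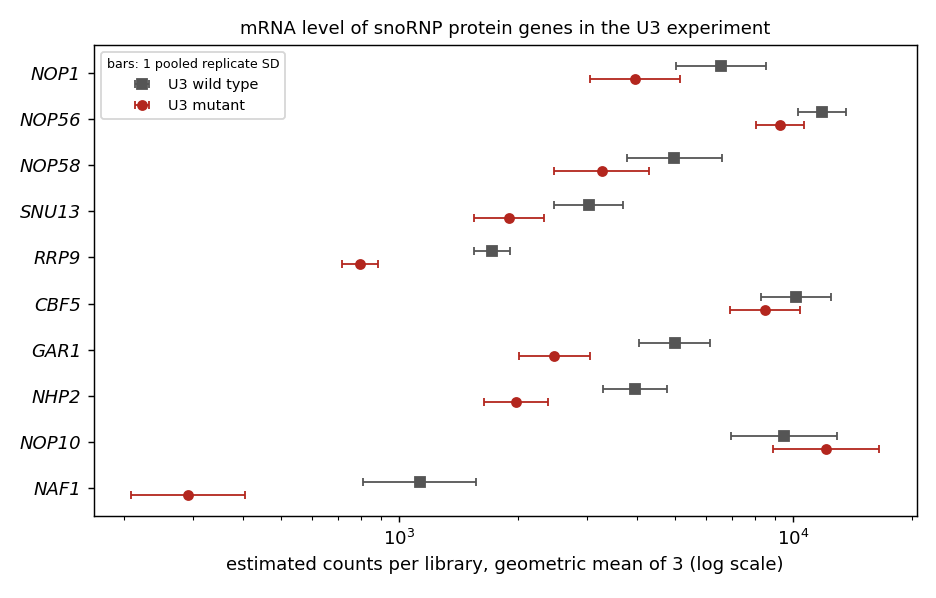
Estimated counts of the 10 genes in the U3 wild type (squares) and the U3 mutant (circles) on a log scale, as geometric means of 3 libraries with bars of 1 pooled replicate SD. The mutant lies below the wild type for all genes but NOP10, and the gap is widest for NAF1 (1125 to 291).

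The genes around these proteins in the same pathway were counted by list, beside the 43.4% of protein-coding features past the threshold and the 22.9% that were lower. Of 9 snoRNP assembly factors tested, 5 were lower and 0 higher at a sleuth q under 0.05. BCD1, needed for stability of box C/D snoRNAs, stood at -1.56 on the log2 scale (standard error 0.23, sleuth q = 1.25e-10). HIT1, a box C/D assembly factor, had -1.50 (standard error 0.29, sleuth q = 2.10e-06). Of 10 U3 partners and helicases that release snoRNAs, 9 were lower and 0 higher, with a median log2 fold change of -1.09. IMP4, a protein that joins U3 to the pre-rRNA, had -1.32 (sleuth q = 4.63e-10), and the helicase gene ROK1 had -1.15 (sleuth q = 8.35e-09). Among 11 genes of snoRNA transcription and processing, 4 were lower and 1 higher, a share near that of protein-coding features. RRP6, an exosome nuclease, had -1.31 (sleuth q = 4.64e-11), and RAT1, a 5′ exonuclease, had -0.92 (sleuth q = 6.45e-04). LRP1, the gene of the nuclear partner of Rrp6, had 0.88 (standard error 0.27, sleuth q = 0.00461), so these partner genes differed in sign.

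The second experiment asked how mRNA levels differ without snR4. The deletion was visible in the tables, in which the fold change of snR4 was -2.91 in glucose and -2.49 on ice on the log2 scale (adjusted p = 9.66e-77 and 7.29e-76, DESeq2). All fold changes of these tables are shrunken towards 0. For the members the shrinkage was small, since between 89.2% and 97.2% of the log2 fold change was kept.

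In glucose, 4 of the 10 members were higher and 2 were lower in snr4Δ at a DESeq2 adjusted p under 0.05. Over all 6131 genes tested, 18.1% were past the threshold, 10.8% higher and 7.31% lower. The members' median log2 fold change was 0.05, beside 0.003 over all genes tested. Changes were small, between -0.23 and 0.47 on the log2 scale.

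The box C/D core genes all had positive fold changes in glucose. SNU13 had the largest, with a mean of 4018 normalised counts over the 6 libraries. It was 1.38-fold higher in snr4Δ (log2 fold change 0.47, standard error 0.07, DESeq2 adjusted p = 1.83e-08). NOP1, with a mean of 12191 normalised counts, was 1.15-fold higher (log2 fold change 0.21, standard error 0.06, DESeq2 adjusted p = 0.00808). NOP58, with a mean of 6615, was 1.14-fold higher (log2 fold change 0.19, standard error 0.05, DESeq2 adjusted p = 0.0046). NOP56, with a mean of 11091, had a log2 fold change of 0.02 and an interval of -0.08 to 0.13 (DESeq2 adjusted p = 0.812). NOP56 and NOP58 encode paralogous proteins that sit in the same particle, and only the NOP58 mRNA passed the test; the difference between the 2 genes was not tested.

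Of the box H/ACA core genes, 3 had negative fold changes in glucose. NOP10, with a mean of 3293 normalised counts, was 1.17-fold lower in snr4Δ (log2 fold change -0.23, standard error 0.06, DESeq2 adjusted p = 0.0029). NHP2, with a mean of 3909, was 1.12-fold lower (log2 fold change -0.17, standard error 0.06, DESeq2 adjusted p = 0.0456). The NHP2 call was near the threshold and was lost when p-values were adjusted over all features (adjusted p = 0.0697). GAR1 and CBF5 had log2 fold changes of -0.04 and 0.07, with intervals that hold 0 (DESeq2 adjusted p = 0.747 and 0.395). NAF1 went the other way, 1.21-fold higher in snr4Δ at a mean of 1033 normalised counts (log2 fold change 0.28, standard error 0.08, DESeq2 adjusted p = 0.00671). RRP9, at a mean of 1026 normalised counts, stood at -0.17 on the log2 scale with an interval of -0.36 to 0.03 (DESeq2 adjusted p = 0.256).

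On ice, 2 of the 10 members were higher and 0 were lower in snr4Δ at a DESeq2 adjusted p under 0.05. At an unadjusted p under 0.05, 4 were higher and 1 was lower (NOP10, DESeq2 unadjusted p = 0.0218). Over all 6140 genes tested, 6.48% were past the threshold, 3.66% higher and 2.82% lower. The members' median log2 fold change was again 0.05, beside -0.002 over all genes tested. NOP58, with a mean of 8600 normalised counts, was 1.17-fold higher (log2 fold change 0.23, standard error 0.06, DESeq2 adjusted p = 0.0106). NAF1, with a mean of 1594, was 1.19-fold higher (log2 fold change 0.25, standard error 0.08, DESeq2 adjusted p = 0.0277). These 2 genes passed the test in the same direction in both conditions. RRP9 was just outside the threshold, with a log2 fold change of 0.22 at a mean of 2614 normalised counts (standard error 0.08, DESeq2 adjusted p = 0.0593). The 7 remaining members had log2 fold changes between -0.17 (NOP10) and 0.15 (CBF5) and DESeq2 adjusted p from 0.163 to 0.807.

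**Figure D3:**
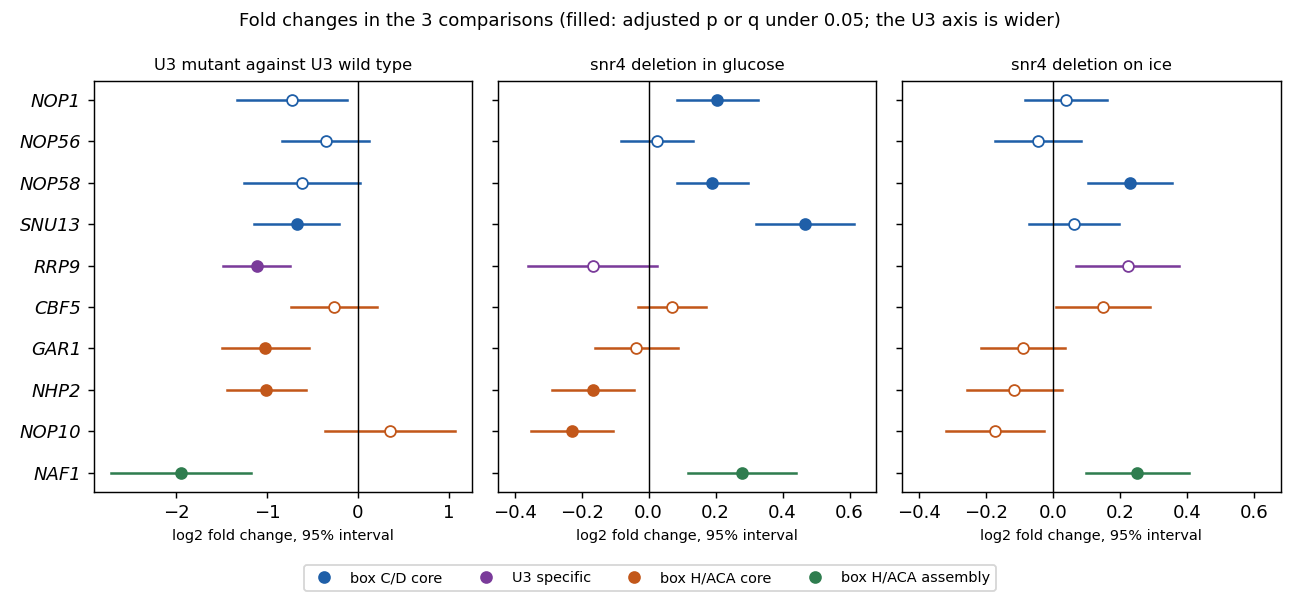
Log2 fold changes of the 10 genes with 95% intervals in the 3 comparisons, coloured by the role of the protein; filled points have an adjusted p or q under 0.05, and the U3 axis is wider than the snr4 axes. Fold changes reach -1.95 (NAF1) in the U3 mutant and stay between -0.23 and 0.47 in the snr4 deletion.

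A call in 1 condition alone does not show that the effect of the deletion depends on the condition, so the difference itself was tested. The effect in glucose was subtracted from that on ice for each of 9308 genes, and a z-test with Benjamini-Hochberg adjustment called 1.09% of them. Of the 10 members, 1 was called. SNU13 stood at 0.47 in glucose and at 0.06 on ice on the log2 scale, a difference of -0.41 (95% interval -0.60 to -0.21, adjusted p = 0.0123). RRP9 moved the other way, from -0.17 in glucose to 0.22 on ice. Its difference of 0.39 had an interval of 0.14 to 0.64 but an adjusted p of 0.114 over all genes. For the other 8 members the interval of the difference held 0, and its ends lay between -0.34 and 0.25 on the log2 scale. The signs in glucose and on ice were the same in 8 of 10 members, NOP56 and RRP9 being the others. The share of same signs over all genes was not computed, so this count has no background beside it.

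**Figure D4:**
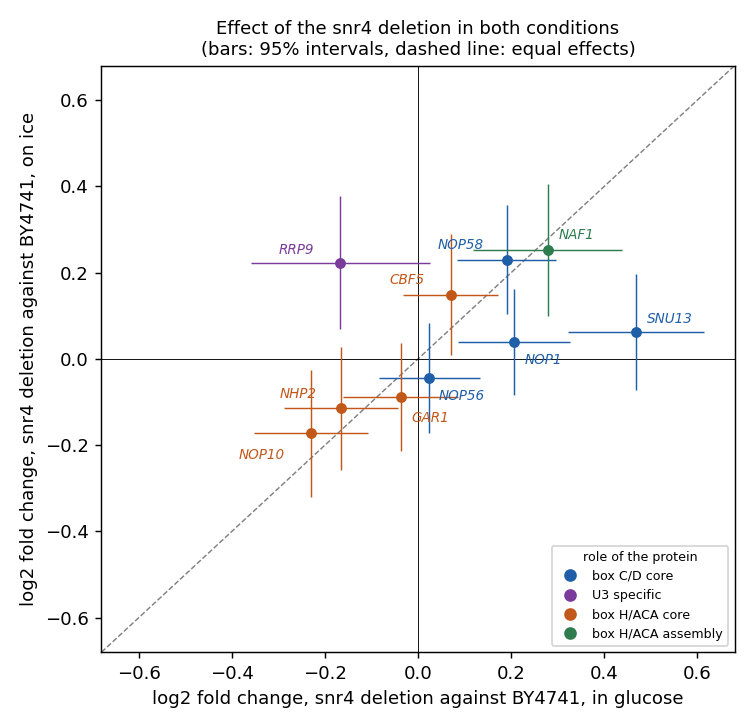
Log2 fold change in snr4Δ on ice against that in glucose for the 10 genes, with 95% intervals as bars and equal effects on the dashed line. SNU13 (0.47 in glucose, 0.06 on ice) lies furthest below the line and RRP9 (-0.17 in glucose, 0.22 on ice) furthest above it.

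The mean level of the members, taken over both genotypes, was higher on ice than in glucose in 10 of 10 genes. Glucose and ice libraries were normalised in separate tables, so these ratios are a description without a test, and condition cannot be told apart from table. The median ratio over 4498 genes at or above the median level was 0.96, with quartiles at 0.82 and 1.1. RRP9 had a ratio of 2.55, from 1026 to 2614 normalised counts, which is at percentile 99.8 of those genes. NHP2 had 1.55 and NAF1 1.54, at percentiles 95.4 and 95.1. The ratios of NOP58, NOP56, CBF5, NOP1, NOP10 and GAR1 ran from 1.30 down to 1.14, all above the upper quartile. SNU13 had the lowest ratio, 1.03.

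The same ratios can be estimated for each genotype from the mean and the fold change of a table. For RRP9 they were 2.22 in BY4741, from 1085 to 2412 normalised counts, and 2.91 in snr4Δ, from 967 to 2817. For SNU13 they were 1.20 in BY4741, from 3372 to 4031, and 0.90 in snr4Δ, from 4665 to 4208. SNU13 was the only member below 1 in either genotype. The group levels are approximate, since the fold changes are shrunken.

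**Figure D5:**
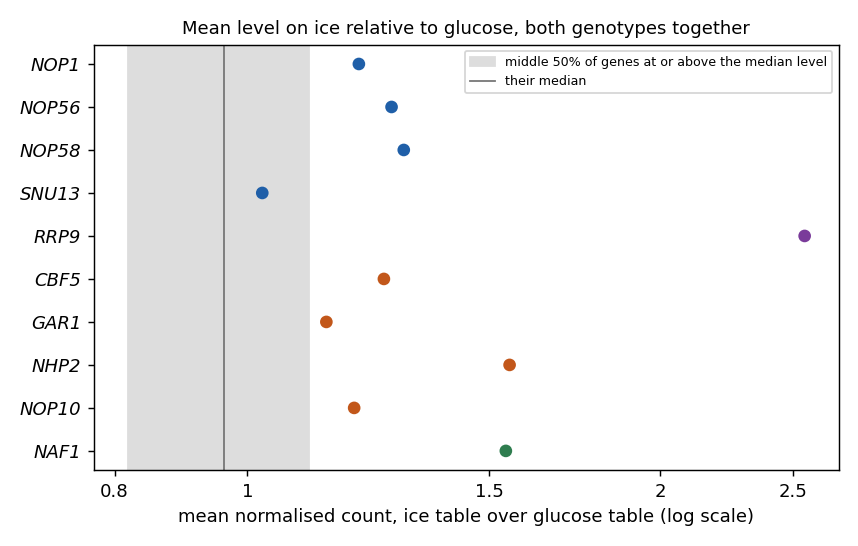
Ratio of mean normalised counts on ice to those in glucose, on a log scale, for the 10 genes over both genotypes; the grey band and line give the quartiles and median of 4498 genes at or above the median level. All 10 genes lie above 1, with RRP9 at 2.55 and SNU13 at 1.03.

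The same 3 lists were counted in snr4Δ, beside 10.8% of all genes higher and 7.31% lower in glucose, and 3.66% higher and 2.82% lower on ice. Of the 9 assembly factors, 0 were past the DESeq2 threshold in either condition, and at an unadjusted p under 0.05 1 was higher and 1 lower in glucose and 1 was higher and 2 were lower on ice. In glucose NRD1, which encodes a factor that terminates snoRNA transcription, was higher (log2 fold change 0.68, standard error 0.08, DESeq2 adjusted p = 5.32e-17), 1 of 10 tested genes of its list. Its change was larger than that of any member. On ice 0 of the 10 genes of that list passed the DESeq2 threshold, and 4 were higher at an unadjusted p under 0.05. DBP4, a helicase gene of early pre-rRNA processing, was higher in glucose (log2 fold change 0.21, DESeq2 adjusted p = 0.0268) and on ice (0.30, DESeq2 adjusted p = 0.00104). It was the 1 gene called among 10 U3 partners and release factors in glucose and 1 of 3 on ice, where LCP5 (0.26, DESeq2 adjusted p = 0.013) was another. At an unadjusted p under 0.05, 2 genes of that list were higher and 0 lower in glucose, and 5 were higher and 0 lower on ice. The share of all genes at an unadjusted p under 0.05 was not computed. The shares given above are at the adjusted threshold, so the unadjusted counts of the lists cannot be set against them.

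Across the comparisons, NAF1 was past the threshold in all 3, lower in the U3 mutant and higher in snr4Δ in both conditions. SNU13 was lower in the U3 mutant and higher in snr4Δ in glucose. NHP2 was lower in the U3 mutant and in snr4Δ in glucose, and NOP58 was higher in snr4Δ in both conditions. RRP9 and GAR1 were called in the U3 mutant alone, and NOP1 and NOP10 in glucose alone. NOP1 in the U3 mutant (sleuth q = 0.0552) and RRP9 on ice (DESeq2 adjusted p = 0.0593) were just outside the threshold. NOP56 and CBF5 were called in 0 of the 3 comparisons. The share of all features with each of these patterns was not computed, so the patterns have no background beside them. The features whose 3 fold changes lay nearest to the members' median profile, among 6338 with values in all tables, were ERI1, PRP16, YRF1-1, YKL023C-A and NUP60, at Euclidean distances of 0.02 to 0.03 on the log2 scale.

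Reads were not counted by a stated strand rule, and the tables also hold frames annotated as dubious that overlap 3 members. YLR198C, which overlaps NOP56, fell by 0.45 on the log2 scale in glucose (DESeq2 adjusted p = 0.00559) at a mean of 250 normalised counts, where NOP56 had 0.02 at 11091. In the U3 mutant YLR198C had 1.05 (standard error 0.48, sleuth q = 0.0773), where NOP56 had -0.35. On ice YLR198C had -0.07 (DESeq2 adjusted p = 0.828). YOR309C, which overlaps NOP58, and YPR136C, which overlaps RRP9, were past the threshold in none of the 3 tables. The part of these overlaps in the members' values was not tested.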

How the data were processed

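Poly(A)-selected RNA was sequenced in 18 libraries, per the labels, although the study's text names rRNA depletion for U3. Sample titles gave the groups. Reads were trimmed by the authors with Trimmomatic. U3 transcripts were quantified as estimated counts with kallisto and tested with sleuth by the authors, and snR4 libraries were mapped with STAR, counted per gene with HTSeq and tested within each condition with DESeq2. The submitters' processing notes name the R64 build. Whether counting used strand was not given in the sources used here.

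Each deposited table holds 1 comparison, with columns of the authors' own fitted contrasts. These were used because 0 columns of single libraries were at hand, so depth per library is unknown, no value per library can be shown, and p-values measure only the spread between these samples. In the deposited U3 table the coefficient and its error are on the natural log of estimated counts to which 0.5 was added by the authors. It also holds the p-value, the q-value and variance components on the same log scale. The log base was read from the ratio of technical variance to counting variance, over transcripts above the median level. The median ratio was 1.20 if the scale is the natural log and 0.07 if it were log2. The deposited variances follow the balanced decomposition of 3 against 3 libraries in 100% of transcripts, which would hold for any log base. Scale and balance together allowed group means and a pooled replicate SD to be recovered. The snR4 tables as deposited give the authors' mean normalised count (signal), shrunken log2 fold change with its error, a score (the Wald statistic), and p-values before and after adjustment.

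U3 coefficients were converted to log2. A gene was called at an adjusted p or q under 0.05. Genes without one stayed out of the counts. The z-test of ice against glucose is two-sided. Promoters were read from the RefSeq R64 genome and locations from its annotation. Members, pathway lists and the naming rule were chosen with earlier results of these data known. The rule named all members, the targeted snoRNAs, the 2 called genes with the lowest adjusted p per list, direction and comparison, and the 5 nearest profiles. Overlapping frames were added after their values were seen. Alternatives were other adjustments, thresholds of 0.01 and 0.1, centring on the median, the variance of each transcript alone and, chosen after seeing the data, undoing the shrinkage.

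The calculations were tested on simulated data, using the real errors of 9380, 6131, 6140 and 9308 features for U3, glucose, ice and the difference, with 200 changed by 1 on the log2 scale. The share recovered was 82.0% for U3 and 100% for each of the others. False calls made up 5.20%, 3.85%, 3.38% and 6.98% of calls. Changes were planted in the more precisely measured features alone, so recovery among noisier features is unknown. Changes below 1 in size, such as the members' -0.23 to 0.47 in snr4Δ, were not simulated. The recovered shares are therefore not the power to detect changes of that size. The software was matplotlib 3.10.9, scipy 1.17.1, pandas 2.3.3 and numpy 2.4.6 under Python 3.11.15.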

Additional observations from a re-analysis of the deposited data

Results flagged for a closer look

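The effect of the snr4 deletion on SNU13 differed between conditions. The log2 fold change on ice was lower than that in glucose by a difference of -0.41 (95% interval -0.60 to -0.21), with an adjusted p of 0.0123 from the z-test over 9308 genes. The mean of SNU13 over both genotypes was 4018 normalised counts in glucose and 4120 on ice. The 2 tables were normalised separately and each rests on 6 libraries.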

How the results depend on the processing

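No paired analysis was possible because the tables hold no value per library. For the same reason no library was left out in turn. The count of members called stayed within 1.5 times the main count under every alternative run, with 1 exception: on ice, a threshold of 0.01 left 0 of the 2 calls. Of 200 values of single members under the alternatives, 190 stayed on their side of the threshold, 6 lost and 4 gained a call, and 0 called values changed sign. Only centring and undoing the shrinkage alter a fold change, so under the other alternatives a sign could not change. The calls that moved in the U3 mutant were NOP1, gained with adjustment over features at or above the median level (adjusted p = 0.0408), with its own variance (adjusted p = 0.0451) and at a threshold of 0.1, and SNU13, lost at 0.01. In glucose NHP2 was lost with adjustment over all features (adjusted p = 0.0697), with centring (adjusted p = 0.0906) and at 0.01. On ice RRP9 was gained at 0.1. The SNU13 difference between conditions was called under all 4 alternatives, including with shrinkage undone. Centring moved the members' median in the U3 mutant from -0.70 to -0.63. In the U3 mutant the intervals of NOP56, NOP58, CBF5 and NOP10 hold 0 and also changes of more than 1.5-fold, which limits what that comparison can show.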

Other observations

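Genes other than the members were grouped by the promoter motifs, a grouping chosen after the members' motifs were seen. In the U3 mutant, 207 tested genes with both a PAC and an RRPE core had a median log2 fold change of -0.65, and 50.2% of them were lower and 6.28% higher at a sleuth q under 0.05. For 937 genes with the PAC core alone the median was -0.24, with 34.0% lower and 16.2% higher. For 200 genes with the RRPE core alone it was -0.07, with 23.5% lower. The 4368 genes with neither had a median of 0.01, with 20.6% lower and 22.7% higher. Genes with both cores thus had the lowest median of the 4 groups. The median of the 10 snoRNP protein genes was -0.70, but only 7 of the 10 hold both cores. NAF1, RRP9 and NOP10 hold the PAC core alone, and their log2 fold changes were -1.95, -1.11 and 0.35.

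In snr4Δ the same groups differed less. In glucose the medians ran from -0.01 for the PAC core alone to 0.03 for the RRPE core alone. On ice the 204 genes with both cores had a median of 0.06, with 10.3% higher and 1.47% lower by DESeq2, beside -0.01 for genes with neither, of which 3.41% were higher and 3.07% lower. No test of these groups was run.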
